A study of Mus musculus with 12 samples.

Results

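Cxcl12, Ccl11 and Ccl8 are chemokine genes of the tumor stroma, and they are described here together with Cxcr4 and Ccr3, genes for receptors of these ligands. The set holds 5 of the 750 endogenous genes of the panel. The 3 chemokines were chosen by their measured rise over vehicle in tumors treated with both agents, so their values in those tumors are given as a description with no test. The 2 receptors entered for the ligands they bind and not for a measured value, and they were tested in every comparison.

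The tumors were CT26, a mouse colon carcinoma line, grown under the skin of Balb/c mice aged 6 to 10 weeks and assigned to groups at a volume of 130 to 170 mm3. RNA of whole tumors taken on day 4 after dosing was counted with an nCounter panel of immune genes, which reads each transcript with a coloured probe pair and no amplification. There were 4 groups of 3 mice, which received vehicle, DSP-0509 (a small molecule agonist of TLR7, 5 mg/kg intravenously), anti-PD-1 antibody (200 μg per mouse) or both agents at these doses, here called the combination. No allele was changed in any group. Each tumor came from its own mouse and grew from 1 implanted cell line, and in bulk RNA a change in the number of cells of a type and a change in RNA per cell cannot be told apart.

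Chemokines are small secreted proteins that bind G protein-coupled receptors and draw cells along a gradient. CXCL12 is made by fibroblasts, endothelial cells and other stromal cells, and through CXCR4 it holds and attracts leukocytes and some tumor cells. CCL11, or eotaxin, is made by fibroblasts and epithelia and attracts eosinophils through CCR3. CCL8, also called MCP-2, is made by macrophages and stromal cells; it binds CCR8 in the mouse, and in humans also CCR1, CCR2 and CCR3.

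Cxcl12 lies on chromosome 6, Ccl11 and Ccl8 lie near each other on chromosome 11, Cxcr4 lies on chromosome 1 and Ccr3 on chromosome 9. Promoter windows from RefSeq (build GRCm38.p6) were matched by symbol for 4 of the 5 genes, Cxcl12, Ccl8, Cxcr4 and Ccr3. The 250 bases before the start are shown for the 2 chemokines among them. Both were chosen for a rise in the combination, and their windows share neither of the core motifs found. Capitals mark the GC box (GGGCGG, read on either strand) in Cxcl12, at chr6:117168285-117168534 on the plus strand, and the TATA box (TATAAA) in Ccl8, at chr11:82114935-82115184 on the plus strand.
Cxcl12: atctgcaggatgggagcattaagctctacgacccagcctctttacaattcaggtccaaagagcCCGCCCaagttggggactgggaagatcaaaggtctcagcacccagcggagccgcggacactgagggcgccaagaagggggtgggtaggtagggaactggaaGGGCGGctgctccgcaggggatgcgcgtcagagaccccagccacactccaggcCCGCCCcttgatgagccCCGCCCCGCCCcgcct
Ccl8: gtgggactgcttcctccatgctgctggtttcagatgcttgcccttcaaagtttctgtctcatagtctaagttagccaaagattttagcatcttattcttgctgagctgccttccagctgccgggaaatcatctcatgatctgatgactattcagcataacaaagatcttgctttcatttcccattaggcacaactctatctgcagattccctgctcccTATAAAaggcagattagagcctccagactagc

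The Cxcl12 window held 5 GC boxes, which begin 187, 86, 33, 16 and 11 bases before the start, the last pair overlapping, and it held no TATA box. The Ccl8 window held 1 TATA box, 32 bases before the start, and no GC box. The Cxcr4 window held 3 GC boxes and a TATA box, read on both strands at overlapping positions, and the Ccr3 window held neither. Of 32851 mouse promoter windows of the same length, 32.7% held a GC box and 12.4% a TATA box. The interferon motifs GAS (TTCNNNGAA) and the ISRE core (GAAA, any 2 bases, GAAA), also searched on both strands, were in none of the 4 windows and in 7.02% and 2.98% of all windows. These are matches of letters and say nothing about which factors bind.

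Total counts per tumor ran from 750416 to 1155698, and the 8 negative control probes averaged 6.25 to 12.5 counts, the highest of them reaching 12 to 21 in a tumor. Values are normalized counts, 1 factor per tumor. Of the 750 genes, 646 reached 20 in 3 or more tumors and were tested with limma, and all 5 members were among them; Ccr3 passed through the treated tumors, as no vehicle tumor reached 20. Differences are on the log2(value + 1) scale, where 1 is a doubling, and a gene was called at a Benjamini-Hochberg adjusted p under 0.05 over the 646 genes. The median difference of all genes tested from vehicle was 0.34 in the combination, 0.20 with DSP-0509 and 0.18 with anti-PD-1 antibody. The 20 housekeeping genes had a median difference of -0.12 with the combination.

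Cxcl12 was at 317, 246 and 1031 normalized counts in vehicle tumors 1 to 3. It was at 988, 1131 and 594 with DSP-0509, at 638, 1049 and 1067 under anti-PD-1 antibody, and at 2387, 1847 and 1541 in the combination. All 3 combination tumors lay above all 9 other tumors, while vehicle tumor 3 lay among the tumors given a single agent. The share of all genes with these combination tumors highest was not counted. As the chemokines were chosen for a rise there, nothing is read from this order for Cxcl12, Ccl11 or Ccl8. The means were 531 ± 434 (SD, n = 3) for vehicle, 904 ± 278 under DSP-0509, 918 ± 243 under anti-PD-1 antibody and 1925 ± 429 in the combination.

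Ccl11 was at 41.6, 64.5 and 254 normalized counts in the vehicle tumors. The DSP-0509 tumors had 174, 253 and 210, the anti-PD-1 tumors 119, 185 and 299, and the combination tumors 368, 405 and 308. The combination tumors were again the 3 highest of the 12, with combination tumor 3 only just above anti-PD-1 tumor 3. Group means were 120 ± 116 (SD, n = 3) for vehicle, 213 ± 39.6 under DSP-0509, 201 ± 91.1 under anti-PD-1 antibody and 360 ± 48.9 in the combination.

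Ccl8 was at 787, 3269 and 5387 normalized counts in the vehicle tumors. It was at 5326, 5379 and 4694 with DSP-0509, at 2945, 5255 and 8120 under anti-PD-1 antibody, and at 8744, 10172 and 8483 in the combination. The 3 combination tumors were once more the highest, anti-PD-1 tumor 3 coming next. Mean values were 3148 ± 2303 (SD, n = 3) for vehicle, 5133 ± 381 under DSP-0509, 5440 ± 2592 under anti-PD-1 antibody and 9133 ± 909 in the combination.

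By mean count the groups of Cxcl12 and Ccl8 ran in the order vehicle, DSP-0509, anti-PD-1 antibody, combination, and for Ccl11 the monotherapies changed places. On the log2 scale they changed places for Ccl8 too, at 12.32 with DSP-0509 and 12.29 under anti-PD-1 antibody. The monotherapy means were neighbours that differed by less than their SDs for each chemokine. By the ratio of highest to lowest tumor, the vehicle group was the most spread. Its highest tumor had 4.20 times the lowest for Cxcl12, 6.10 times for Ccl11 and 6.85 times for Ccl8, and vehicle tumor 3 was the highest each time. Across the combination tumors the same ratios were 1.55, 1.31 and 1.20.

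**Figure D1:**
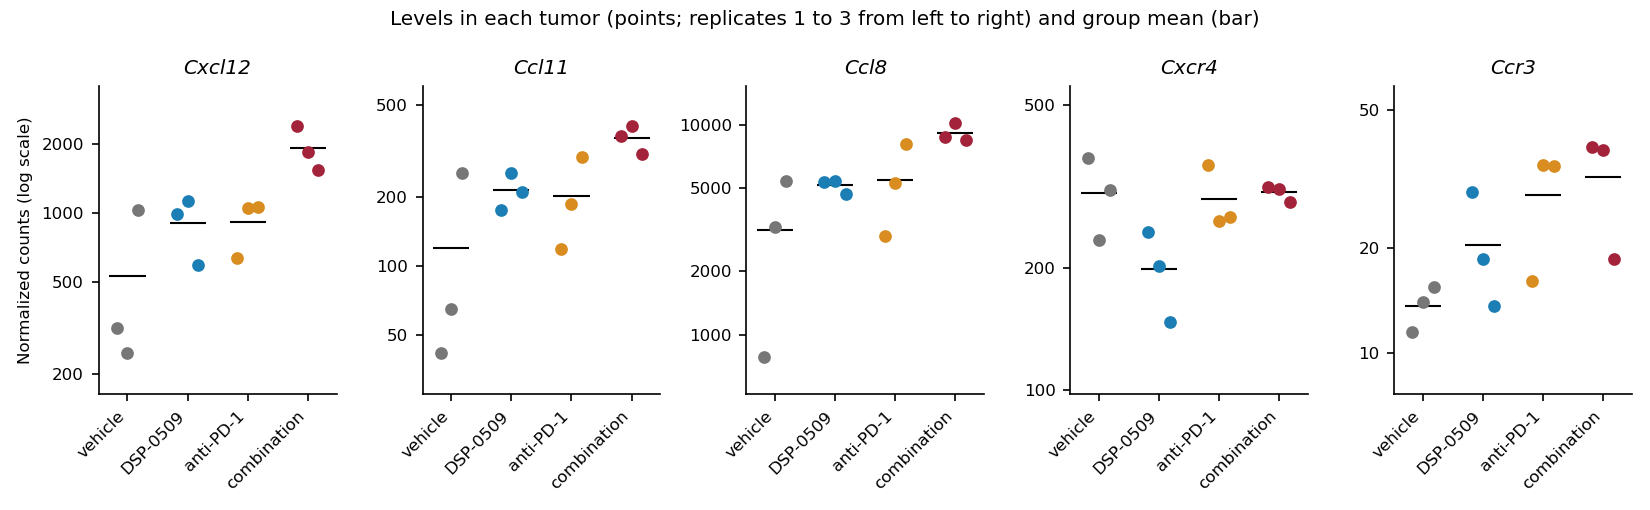
Normalized counts (log scale) of Cxcl12, Ccl11, Ccl8, Cxcr4 and Ccr3 in the 4 groups; each point is 1 tumor, replicates 1 to 3 from left to right, and each bar is the group mean. The 3 combination tumors are the highest for each chemokine, all chosen for a rise there. Cxcr4 is lowest with DSP-0509, and Ccr3 stays under 40 throughout.

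The combination tumors differed from vehicle by 2.13 (SE 0.48) on the log2 scale for Cxcl12, a 4.38-fold difference, by 2.01 (SE 0.56) for Ccl11 and by 1.92 (SE 0.59) for Ccl8. These ranked 6, 8 and 10 among the 646 genes, and this contrast chose the genes. Of all genes tested, 38.5% had their 3 combination tumors above the 3 vehicle tumors and 21.5% were called higher, so nothing is read from the chemokines' own separation. Against DSP-0509 the combination differed by 1.12 (SE 0.48) for Cxcl12, 0.76 (SE 0.56) for Ccl11 and 0.83 (SE 0.59) for Ccl8. Against anti-PD-1 antibody it differed by 1.08, 0.93 and 0.86 with the same standard errors. The 3 combination tumors lay above all DSP-0509 tumors for 16.7% of all genes and above all anti-PD-1 tumors for 15.5%. In both comparisons limma called 0% of all genes, with 9.91% and 10.2% under an unadjusted p of 0.05. The size of the difference from vehicle rested in part on single vehicle tumors. For Ccl8 it was 1.12 without vehicle tumor 1 and 2.50 without vehicle tumor 3, for Ccl11 1.48 and 2.77, and for Cxcl12 it was 1.73 without vehicle tumor 2 and 2.76 without vehicle tumor 3.

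Each single agent was compared with vehicle by a test that used the same vehicle tumors as the choosing contrast but other treated tumors. With DSP-0509, Cxcl12 was higher by 1.01 (SE 0.48, limma adjusted p = 0.321), Ccl11 by 1.24 (SE 0.56, adjusted p = 0.306) and Ccl8 by 1.09 (SE 0.59, adjusted p = 0.370). None of the 3 was called, in a comparison where 0.774% of all genes were. With anti-PD-1 antibody the differences were 1.05 (SE 0.48, limma adjusted p = 0.372) for Cxcl12, 1.08 (SE 0.56, adjusted p = 0.415) for Ccl11 and 1.06 (SE 0.59, adjusted p = 0.457) for Ccl8. None passed, and 0% of all genes did, with 12.8% under an unadjusted p of 0.05. Same-numbered tumors deviated together in this comparison. Each of the 3 chemokines was higher with anti-PD-1 antibody in 3 of 3 pairs, and with DSP-0509 in 2 of 3. The share of all genes higher in 3 of 3 pairs was not counted. The vehicle tumors of the pairs also helped to choose these genes. With the replicate number as a block, 32 genes were called between anti-PD-1 antibody and vehicle, the 3 chemokines not among them (adjusted p = 0.255, 0.206 and 0.234, limma). The 3 DSP-0509 tumors lay above all vehicle tumors for none of the chemokines, nor did the anti-PD-1 tumors, since vehicle tumor 3 was above at least 1 tumor of each group every time, and above all 3 DSP-0509 tumors for Ccl11 and Ccl8. Without vehicle tumor 3 the differences with DSP-0509 were 1.64 for Cxcl12, 2.00 for Ccl11 and 1.67 for Ccl8, and with anti-PD-1 antibody 1.68, 1.84 and 1.64. None was called in those fits either, which left 2 vehicle tumors.

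The monotherapies gave near values. DSP-0509 minus anti-PD-1 antibody was -0.03 (95% interval -1.11 to 1.04) for Cxcl12, 0.17 (-1.08 to 1.41) for Ccl11 and 0.03 (-1.28 to 1.35) for Ccl8, each with a limma adjusted p of 0.999. The intervals leave room for a difference of 1 on the log2 scale in either direction. As a description, the differences of the 2 single agents from vehicle summed to 2.06 for Cxcl12, against 2.13 with the combination, to 2.32 against 2.01 for Ccl11, and to 2.15 against 1.92 for Ccl8. The sums count the vehicle tumors in both terms.

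**Figure D2:**
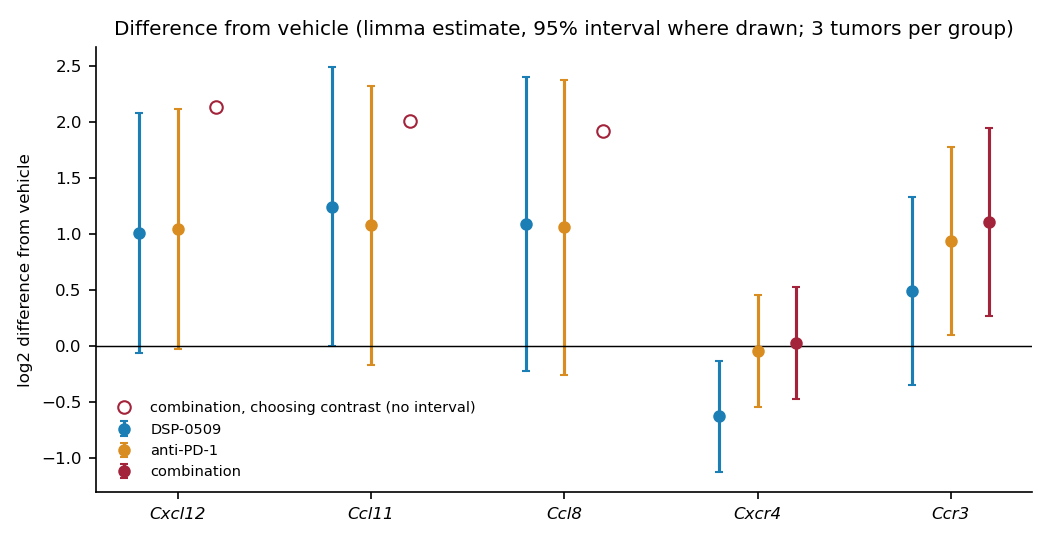
Difference from vehicle on the log2(value + 1) scale (vertical axis) for the 5 genes, by treatment; points are limma estimates from 3 tumors a group and bars are 95% intervals. Open circles mark the contrast that chose the chemokines, drawn with no interval; the Cxcr4 estimates are -0.63, -0.04 and 0.03, while those of Ccr3 are 0.50, 0.94 and 1.11.

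Cxcr4, the receptor of CXCL12, did not follow its ligand. It was at 371, 234 and 310 normalized counts with vehicle, at 245, 201 and 147 with DSP-0509, at 356, 260 and 266 under anti-PD-1 antibody and at 315, 311 and 290 in the combination. The DSP-0509 tumors were low, lying below all anti-PD-1 and all combination tumors and overlapping vehicle tumor 2. The means were 305 ± 68.9 (SD, n = 3), 198 ± 48.8, 294 ± 54.0 and 305 ± 13.3 in the same order, so vehicle, anti-PD-1 antibody and the combination did not differ beyond their spread.

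Against vehicle, Cxcr4 differed by -0.63 (SE 0.22, limma adjusted p = 0.225) with DSP-0509, by -0.04 (adjusted p = 0.940) under anti-PD-1 antibody and by 0.03 (95% interval -0.47 to 0.52, adjusted p = 0.941) in the combination. It was 0.65 (SE 0.22, adjusted p = 0.422) higher with the combination than with DSP-0509, with all 3 combination tumors above all DSP-0509 tumors, as for 16.7% of all genes, where 0% were called and 9.91% were under an unadjusted p of 0.05. DSP-0509 minus anti-PD-1 antibody was -0.59 (SE 0.22, limma adjusted p = 0.999), with all 3 DSP-0509 tumors below, as for 4.49% of all genes, where 0% were called and 3.87% were under an unadjusted p of 0.05. The sign of the Cxcr4 difference between the combination and vehicle turned with the scaling, to -0.45 after quantile normalization and -0.51 after centring each tumor on its median gene, and was not called either way.

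Ccr3, the eotaxin receptor, was low in every tumor. It was at 11.4, 14.0 and 15.5 normalized counts with vehicle, 29.1, 18.6 and 13.6 with DSP-0509, 16.1, 34.7 and 34.4 under anti-PD-1 antibody and 39.1, 38.2 and 18.7 in the combination. These values stand for 11 to 41 counted molecules a tumor, where the highest negative control probe gave 12 to 21. The count was above the highest control probe of its own tumor in 8 of 12 tumors, 1 of 3 with vehicle, 2 of 3 with either single agent alone and 3 of 3 in the combination. All vehicle tumors lay below all anti-PD-1 and all combination tumors, as for 12.4% and 38.5% of all genes. Under 20 were 2 DSP-0509 tumors, 1 anti-PD-1 tumor and 1 combination tumor. The means ran from 13.6 ± 2.04 (SD, n = 3) through 20.4 ± 7.88 and 28.4 ± 10.7 to 32.0 ± 11.5, and the 3 treated means were within their spread.

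With the combination, Ccr3 was 1.11 (SE 0.38, limma adjusted p = 0.0587) above vehicle and did not pass, in a comparison where 22.0% of all genes passed in either direction. The difference was 0.94 (SE 0.38, adjusted p = 0.332) with anti-PD-1 antibody, where 12.4% of all genes had their 3 treated tumors above vehicle, and 0.50 (SE 0.38, adjusted p = 0.502) with DSP-0509. The combination exceeded DSP-0509 by 0.61 (adjusted p = 0.530) and anti-PD-1 antibody by 0.17 (adjusted p = 0.885). The interaction of both agents, the combination's difference beyond the sum of the single agents, was 0.70 (SE 0.32) for Cxcr4 and -0.32 (SE 0.53) for Ccr3, each with a limma adjusted p of 0.9996. Ccr3 entered the test through its treated tumors. With no filter on low values its difference was the same and the adjusted p was 0.0651. The call on Ccr3 depended on single tumors and on scaling. The difference of the combination from vehicle passed with tumors scaled by their housekeeping genes (1.19, adjusted p = 0.0299), without combination tumor 3 (1.45, adjusted p = 0.0409) and without anti-PD-1 tumor 1 (adjusted p = 0.0320). Of the 646 genes, 142 passed as reported, 59 to 174 with 1 tumor left out and more with housekeeping scaling, as counted below. Nothing is read from these passes of Ccr3.

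Ccl11 and Ccl8 lie in a cluster of CC chemokine genes on chromosome 11, which RefSeq orders as Ccl2, Ccl7, Ccl11, the long noncoding RNA Gm38913, Ccl12, Ccl8 and Ccl1. The 4 chemokine genes around them, all measured, attract monocytes (Ccl2, Ccl7 and Ccl12) or act on CCR8 (Ccl1). Ccl2 was at 4338, 8347 and 6525 normalized counts with vehicle and at 8660, 9393 and 8166 with the combination. Ccl12, which lies between Ccl11 and Ccl8, was at 1247, 2701 and 2382 with vehicle and at 1614, 1758 and 1142 with the combination. For both, the groups overlapped. The combination differed from vehicle by 0.50 (limma adjusted p = 0.217) for Ccl2, 0.26 (adjusted p = 0.580) for Ccl7, -0.44 (adjusted p = 0.405) for Ccl12 and 0.72 (adjusted p = 0.161) for Ccl1, so 0 of the 4 passed, where 21.5% of all genes were called higher. The median of the 4 was 0.38, beside 0.34 for all genes. Ccl11 and Ccl8, chosen for this contrast, differed by 2.01 and 1.92. With DSP-0509 the differences of the 4 ran from -0.40 to 0.16, and with anti-PD-1 antibody from -0.55 to 0.51. None passed there.

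**Figure D3:**
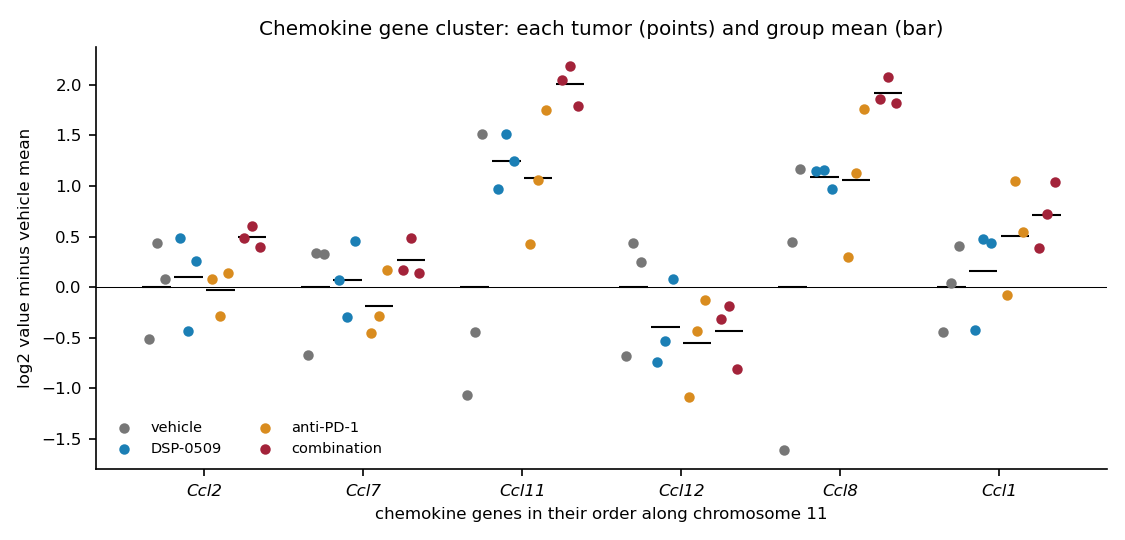
The 6 chemokine genes of the chromosome 11 cluster in gene order (horizontal axis) with the log2 value of each tumor minus the vehicle mean of that gene (vertical axis); colours are the 4 groups, points are tumors and bars group means. Ccl11 and Ccl8 reach 2.01 and 1.92 in the combination, and the 4 other genes lie between -0.44 and 0.72.

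Likeness of pattern was measured over the 12 tumors as the root mean square (RMS) difference of log2 values, each gene set to its own mean, so that 0 is an identical course. The measure uses the tumors that chose the chemokines and is a description. Genes were not scaled to a common spread, so it also depends on the size of change. A gene that varies little lies far from one that varies much, whatever their order of tumors. Among 645 genes, the nearest to Cxcl12 were Ccl11 (RMS 0.38), the collagen genes Col3a1 (0.38) and Col1a1 (0.42), the complement gene C3 (0.44) and Fap (0.46), which codes for a protease of activated fibroblasts. The median gene was at 0.86. The nearest to Ccl11 were Col3a1 (RMS 0.29), Col1a1 (0.32), Ccl8 (0.35), Cxcl12 (0.38) and the complement gene C4b (0.39). The nearest to Ccl8 were Ccl11 (RMS 0.35), the NK cell receptor gene Klrc2 (0.36), the complement gene Cfb (0.36), Col1a1 (0.39) and C4b (0.40). Ccl8 ranked 18 for Cxcl12, while Cxcl12 ranked 68 for Ccl8. Pdgfrb, the PDGF receptor of fibroblasts and pericytes, ranked 444 for Cxcl12, 397 for Ccl11 and 390 for Ccl8. Cxcr4 ranked 446, 570 and 579. The genes nearest to Cxcr4 itself were Atg10 (RMS 0.14) and Atg16l1 (0.16), which act in autophagy, then Litaf (0.17), the integrin gene Itga5 (0.19) and Csf1 (0.20), a macrophage growth factor, with the median gene at 0.53.

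Within groups the chemokines and the collagens shared some of their highest and lowest tumors, as a description with 3 tumors a group. The share of all genes that match as often was not counted. Both collagens are also among the genes nearest to Cxcl12 and Ccl11 over these same tumors, so nothing is read from the counts. Ccl11 and Ccl8 had the same highest tumor in 4 of 4 groups and the same lowest in 3 of 4. Cxcl12 shared its highest tumor with Ccl11 in 3 of 4 groups and its lowest in 2 of 4. Col3a1 shared its highest tumor with Ccl11 in 4 of 4 groups and with Cxcl12 in 3 of 4, and its lowest with each in 3 of 4. Col1a1 shared its highest tumor with Ccl11 in 1 of 4 groups and its lowest in 4 of 4, and each with Cxcl12 in 2 of 4. Cxcr4 shared its lowest tumor with Cxcl12 in 3 of 4 groups and its highest in 1 of 4, and with Ccl11 in 1 and 0 of 4. Vehicle tumor 3, the high vehicle tumor for all 3 chemokines, was also the high one for Col1a1 (5242 normalized counts, against 1167 and 2104) and Col3a1 (12670, against 1665 and 2774).

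**Figure D4:**
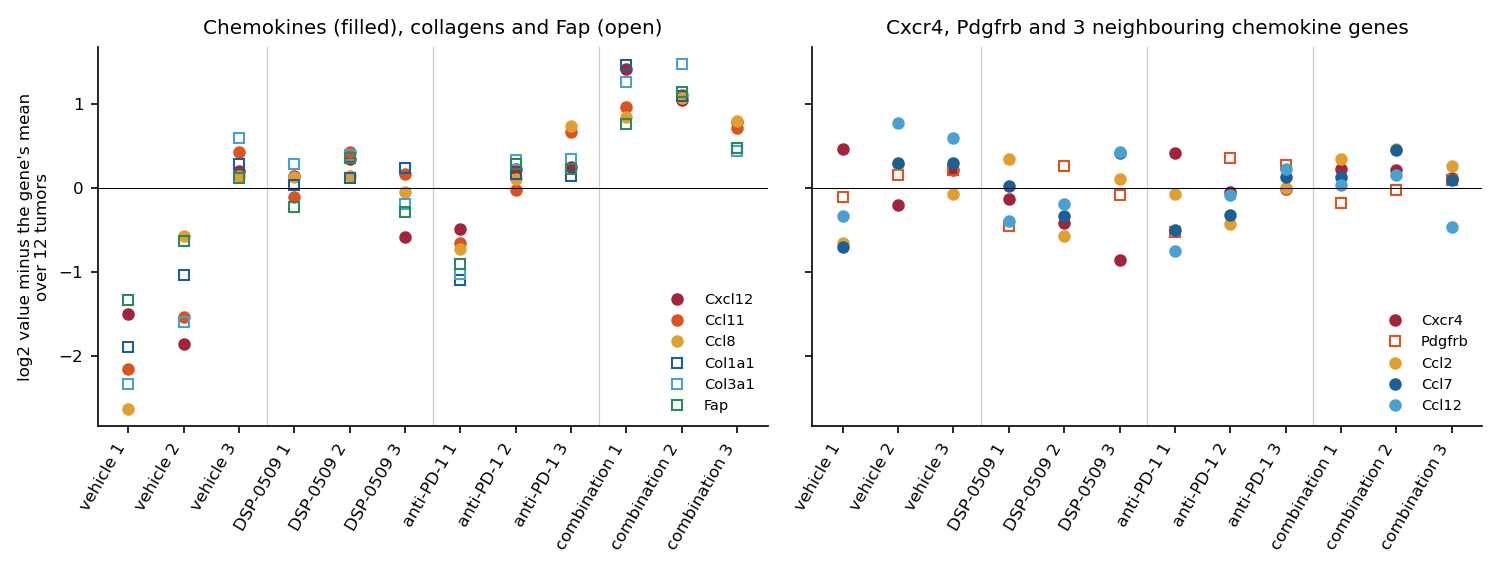
Log2 value of each gene minus its mean over the 12 tumors (vertical axis), tumor by tumor (horizontal axis). Left, Cxcl12, Ccl11 and Ccl8 (filled) with Col1a1, Col3a1 and Fap (open), which are low in vehicle tumors 1 and 2 and high in the combination; right, Cxcr4, Pdgfrb, Ccl2, Ccl7 and Ccl12, which stay within 1 of their means.

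The fibroblast markers Col1a1, Col3a1, Fap and Pdgfrb were measured. With the combination, 3 of these 4 rose: Col1a1 by 1.89 (limma adjusted p = 0.0269), Col3a1 by 2.17 (adjusted p = 0.0413) and Fap by 1.40 (adjusted p = 0.0350), while Pdgfrb differed by -0.12 (adjusted p = 0.780). Of all genes, 21.5% were called higher. The calls were not firm, since Col1a1 kept its call in 8 of the 12 fits that left out 1 tumor, Col3a1 in 2 and Fap in 7, and a fit of the compared groups alone called 0 of the 4. Centring each tumor on its median gene, like background subtraction, ended the calls of Col3a1 and Fap, quantile normalization ended that of Fap, and after centring or quantile normalization Pdgfrb was called lower (-0.65 and -0.66). The part of these cells in the chemokine result was not tested. The summed level of the 4 markers ran from 3082 to 18271 in vehicle tumors, 12725 to 16036 with DSP-0509, 6358 to 15797 under anti-PD-1 antibody and 17761 to 32797 in the combination. With the single agents none of the 4 passed.

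The chemokines were also set against marker genes of the same tumor, as the log2 value of the chemokine minus the mean log2 value of the markers. Relative to all 4 fibroblast markers, the combination was above vehicle by 0.80 for Cxcl12, 0.68 for Ccl11 and 0.59 for Ccl8. Relative to Pdgfrb alone the differences were 2.25, 2.13 and 2.04, and relative to the mean of Col1a1 and Col3a1 they were 0.10, -0.02 and -0.11. The last values restate the likeness above, since both collagens are among the genes nearest to Ccl11 over the same tumors. Relative to the mean of 6 macrophage genes the differences were 1.65, 1.53 and 1.44. All of these use the tumors that chose the chemokines and are descriptions.

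Other cell types that make or receive these chemokines were read from marker lists. Where 21.5% of all genes were called higher in the combination, the counts of markers were as follows. Of 6 endothelial markers (Cdh5, Pecam1, Kdr, Tek, Tie1 and Vwf) 0 passed with the combination, and their sum ran from 1488 to 2374 with vehicle and 1506 to 2353 with the combination. Of 6 macrophage markers 1 rose, Cd68 by 0.67 (limma adjusted p = 0.0169), and their sum ran from 6101 to 11104 and from 9606 to 12490. The T cell markers Cd3d, Cd3e and Cd3g rose in 3 of 3, by 1.38 to 1.57, with sums of 229.7 to 412 with vehicle and 753 to 1491 with the combination. The 3 calls held in all 12 fits that left out 1 tumor. Of the neutrophil markers, 1 of 3 tested rose, Csf3r by 1.00 (limma adjusted p = 0.0151), the epithelial markers Epcam (0.44) and Cdh1 (0.78) did not pass, and the 3 B cell markers were below the filter. The part of these cells in the chemokine values was not tested.

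Eosinophils, the main cells that CCL11 attracts, were covered by few markers. Both, Prg2 (a granule protein) and Il5ra (the IL-5 receptor), were below the filter, with a sum of 11.4 to 17.8 normalized counts in vehicle tumors and 21.1 to 28.0 in the combination for the pair, while single negative control probes reached 12 to 21 counts. With no filter on low values, Il5ra was called higher in the combination (1.33, limma adjusted p = 0.00917), with 4.16 to 5.61 normalized counts in vehicle tumors and 13.1 to 15.9 in the combination, none above the most that the highest control probe gave. Prg2 was not called (0.23, adjusted p = 0.642). Of 8 genes of type 2 immunity, which drives eotaxin in many tissues, Il4, Il5 and Il13 were below the filter. Of the 5 tested, 1 rose with the combination, where 21.5% of all genes were called higher. It was the receptor gene Il13ra1, by 0.50 (limma adjusted p = 0.0169). Il4ra (0.45, adjusted p = 0.163), Il13ra2 (0.60, adjusted p = 0.181), Gata3 (0.63, adjusted p = 0.217) and Stat6 (0.02, adjusted p = 0.881) did not pass. Of 4 mast cell and basophil markers (Tpsab1, Cma1, Fcer1a and Ms4a2) 0 passed, beside the same 21.5% of all genes.

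The partners of CXCL12 were mostly proteases and adhesion molecules. Of 7, 6 were tested and 1 was called higher with the combination, beside 21.5% of all genes. This was Dpp4, whose product cuts CXCL12, which rose by 1.30 (SE 0.39, limma adjusted p = 0.0384). It was at 29.1, 38.3 and 76.4 normalized counts with vehicle and at 91.9, 161 and 89.6 with the combination. The groups did not overlap, as for 38.5% of all genes, and the call held in 5 of 12 fits that left out 1 tumor. Mmp9 (1.08, adjusted p = 0.189) and Ctsg (0.59, adjusted p = 0.471), both proteases, the integrin gene Itga4 (0.92, adjusted p = 0.134), its ligand gene Vcam1 (0.27, adjusted p = 0.112) and Mif, another ligand of CXCR4 (-0.10, adjusted p = 0.851), did not pass. The protease gene Elane was below the filter. The median of the 6 was 0.76.

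Other receptors of the CC ligands were read as well. Ccr8, the mouse receptor of CCL8, was at 32.2, 26.2 and 24.6 normalized counts with vehicle, 21.2, 23.3 and 23.5 with DSP-0509, 39.6, 29.7 and 37.4 under anti-PD-1 antibody and 30.6, 30.8 and 38.3 in the combination. The DSP-0509 tumors were the 3 lowest of the 12, near the highest control probes of those tumors (20, 17 and 16 counts). All 3 lay below all anti-PD-1 tumors, as for 4.49% of all genes. The share of genes with these tumors lowest of the 12 was not counted, and nothing is read from the order. The combination differed from vehicle by 0.26 (limma adjusted p = 0.271) for Ccr8, 0.04 (adjusted p = 0.913) for Ccr1 and 0.28 (adjusted p = 0.776) for Ccr2, and none of these passed. Of the 5 other ligands of CCR3, Ccl26 and Ccl28 were below the filter. Ccl5, a chemokine of T cells, rose by 2.28 (limma adjusted p = 0.0101), and Ccl7 (0.26) and the eotaxin-2 gene Ccl24 (0.08, adjusted p = 0.921) did not.

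The rest of the chemokine family is read against the 21.5% of all genes called higher in the combination. Of 15 CC chemokines tested, 1 rose with the combination, Ccl5, followed by Ccl3 (1.26, limma adjusted p = 0.0553), Ccl4 (0.87, adjusted p = 0.0765) and Ccl21a (0.80, adjusted p = 0.413), and the lowest were Ccl12 (-0.44) and Ccl17 (-0.20, adjusted p = 0.608). Their median was 0.35, beside 0.34 for all genes. Of 11 CXC chemokines, 3 rose, the CXCR3 ligands Cxcl9 by 1.81, Cxcl10 by 1.56 and Cxcl11 by 1.82 (limma adjusted p = 0.00837, 0.00966 and 0.00616), and these calls held in all 12 fits that left out 1 tumor. Cxcl13, a B cell attractant, differed by 1.84 (adjusted p = 0.0553), and the lowest were Cxcl1 (-0.76, adjusted p = 0.602) and Cxcl2 (-0.33, adjusted p = 0.834), both neutrophil attractants. Of 12 other chemokine receptors, 2 rose, Cxcr6 by 1.69 (limma adjusted p = 0.0170) and Ccrl2 by 0.89 (adjusted p = 0.0487), the second in 2 of 12 fits that left out 1 tumor. Next was Cxcr3 (0.81, adjusted p = 0.113), and the lowest were Cx3cr1 (-0.54, adjusted p = 0.388) and Ccr9 (-0.01, adjusted p = 0.992).

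The CXCR3 ligands and the stromal chemokines are set side by side here. With DSP-0509 the 3 CXCR3 ligands had a median difference of 1.49 from vehicle and all 3 of their DSP-0509 tumors above all vehicle tumors, as for 16.4% of all genes. With anti-PD-1 antibody their median was 1.04. For Cxcl9 the vehicle tumors had 733, 1199 and 1046 normalized counts and the DSP-0509 tumors 2462, 2981 and 2774, next to combination tumors at 2436, 3388 and 4793. Neither list had a call with a single agent, where 0.774% of all genes were called with DSP-0509 and 0% with anti-PD-1 antibody. With DSP-0509 the limma adjusted p was 0.0521 to 0.0585 for the CXCR3 ligands and 0.306 to 0.370 for the stromal chemokines. Under anti-PD-1 antibody it was 0.202 to 0.313 and 0.372 to 0.457. The difference between the lists was not tested.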

How the data were processed

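RNA of 12 whole CT26 tumors, 4 groups of 3 mice, was counted with the mouse nCounter PanCancer immune panel (770 genes, 20 of them housekeeping). The authors processed the counts in nSolver, and what they deposited is a signal, each gene's count times 1 factor per tumor, without background subtraction. How that factor was set is not given in the sources used here. Total counts of 750416 to 1155698 per tumor were read from the steps of the values. They set the precision of low genes such as Ccr3. The limma p-values rest on 1 estimate per gene of the spread between mice within groups, shared by the 12 tumors and moderated across genes.

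Groups were taken from the sample titles. On the log2(value + 1) scale, the 646 of 750 endogenous genes that reached 20 in 3 or more tumors were fitted in R 4.3.3 with limma 3.58.1, by lmFit and eBayes, over the 12 tumors and without covariates. P-values were adjusted after Benjamini and Hochberg within each comparison, over every gene tested. The fit was also run on simulated data with independent noise for each gene. Recovery was required there only for changes larger than any difference reported here. The members and lists were chosen with earlier results of these data known. The rule for named genes took the 5 members, the genes of lists of up to 8, the 4 highest and 2 lowest against vehicle of longer lists, and the 5 genes nearest in pattern to Cxcl12, Ccl11, Ccl8 and Cxcr4, of which part is printed. One gene of the receptor lists is not reported here.

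Alternatives were a pseudocount of 10, no filter or a filter at 50, housekeeping scaling, quantile normalization, centring, background subtraction, fits of the compared groups alone, array weights, the methods' t-test, the replicate number as a block and each tumor left out in turn. Same-numbered tumors deviated together in every pair (correlation over 0.1) in 3 comparisons: anti-PD-1 antibody against vehicle (0.18 to 0.68), and the combination against DSP-0509 (0.32 to 0.59) or against anti-PD-1 antibody (0.14 to 0.69). The sources do not tie these numbers to a litter or batch. Promoter windows and gene order came from RefSeq, build GRCm38.p6. Plots were made with matplotlib 3.10.9 under Python 3.11.15.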

Additional observations from a re-analysis of the deposited data

How the results depend on the processing

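With 3 tumors a group and a vehicle group that spans several-fold, small differences could not be seen, and for Ccr3 the few counts add to this. Scaling moved the median difference of all genes between the combination and vehicle, from 0.34 as deposited to 0.43 with housekeeping scaling, -0.13 after quantile normalization and -0.19 after centring each tumor on its median gene. With each treatment the 3 chemokines were above vehicle in every fit, which is no test, as the vehicle tumors helped choose them. Of the list genes called with the combination, quantile normalization and centring each ended the calls of Fap, Dpp4, Cd68, Csf3r, Ccrl2 and Il13ra1, fits of the compared groups alone ended those of Cd3d, Col1a1, Col3a1, Csf3r, Cxcr6, Dpp4 and Fap, background subtraction those of Ccrl2, Col3a1, Dpp4 and Fap, no filter that of Ccrl2, centring that of Col3a1, and the methods' t-test, adjusted, every one. The planned edgeR test was not run, since the values were treated as a normalized signal and not as counts. The cause of the changes below was not tested.

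Between the combination and vehicle, Ccr3 passed with housekeeping scaling (1.19) and array weights (1.24) but not as reported. Both settings called more of all genes in this comparison, as counted below. Cxcr4 changed sign after quantile normalization (-0.45) and centring (-0.51). Between the combination and anti-PD-1 antibody, Cxcr4 turned to -0.17 and -0.18 in the same settings, and Ccr3 to -0.074 after centring. Between the combination and DSP-0509, Ccl11 moved to 0.48 and 0.43 and Ccl8 to 0.69 and 0.50 after quantile normalization and centring. DSP-0509 minus anti-PD-1 antibody turned to 0.050 for Cxcl12 after centring and to -0.21 for Ccl8 with array weights. With array weights, which count some tumors less, Cxcl12 (1.60), Ccl11 (1.38) and Ccr3 (1.19) passed between anti-PD-1 antibody and vehicle. Cxcr4 turned to 0.046. As this setting called more genes (counted below), nothing is read from the passes. Over the other settings, leaving out no tumor, the difference of Ccr3 from vehicle ran from 0.58 to 2.00 (adjusted p from 0.00258 to 0.231) in the combination, from 0.55 to 1.44 with anti-PD-1 antibody and from 0.28 to 0.99 with DSP-0509.

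Leaving out 1 tumor at a time, the combination minus vehicle ran from -0.15 to 0.18 for Cxcr4 and from 0.93 to 1.45 for Ccr3. The combination minus anti-PD-1 antibody ran from -0.014 to 0.21 for Cxcr4 and from -0.18 to 0.51 for Ccr3. Anti-PD-1 antibody minus vehicle ran from -0.22 to 0.11 for Cxcr4. DSP-0509 minus anti-PD-1 antibody ran from -0.28 to 0.24 for Cxcl12, -0.16 to 0.50 for Ccl11 and -0.35 to 0.38 for Ccl8.

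With the replicate number as a block, Cxcr4 passed between DSP-0509 and vehicle (-0.63, adjusted p = 0.0482), where same-numbered tumors did not deviate together (correlations from -0.18 to 0.37), and no other member call changed. The block called 81 genes between DSP-0509 and vehicle, 32 between anti-PD-1 antibody and vehicle, 250 between the combination and vehicle, 1 between the combination and DSP-0509 and 3 between the combination and anti-PD-1 antibody, against 5, 0, 142, 0 and 0 without it. The 142 became 232 with housekeeping scaling, 286 with array weights, 92 in fits of the compared groups alone, 4 with the methods' t-test and 59 to 174 without 1 tumor. The 5 became 11 with a pseudocount of 10, 13 with a filter at 50, 28 with housekeeping scaling, 10 after quantile normalization, 38 with array weights, 1 in fits of the compared groups alone, 0 with the methods' t-test and 0 to 17 without 1 tumor. The 0 between anti-PD-1 antibody and vehicle became 165 with array weights and up to 9 without 1 tumor, and that between the combination and anti-PD-1 antibody became 25 with array weights.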
